A study of Mus musculus with 27 samples.

Results

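The genes Ccl2, Ccl7 and Ccl8 of the mouse monocyte chemoattractant protein family were followed in transferred monocytes after they had entered the small intestine. These 3 genes were taken by name from a panel of 67 genes, of which 57 had values. The panel was counted on the NanoString nCounter, an assay that counts barcoded probes directly and does not sequence. Monocytes from the bone marrow of C57BL/6 WT donors were given to C57BL/6 CCR2-/- recipients. Later, 100 donor-derived cells per recipient were sorted from the small intestine as CD64+ CD11b+ cells with low or intermediate CD11c, with neutrophils and eosinophils gated out. The authors describe this gate as one that leaves out dendritic cells of the gut. Manipulated recipients had their small intestine surgically handled 1 day before the transfer and gave 5, 4 and 4 samples at days 1, 2 and 5 after it. Non-manipulated recipients had no surgery and gave 5, 5 and 4 samples at the same days, so that 27 mice were sampled in all. All recipients of both arms lacked CCR2, while the measured donor cells carried it. The comparison of arms therefore held anaesthesia, incision and pain relief as well as handling of the gut, and these cannot be told apart here. The paper reports that sham surgery, a laparotomy in which the gut was not handled, caused no gut inflammation. No sham recipient is among these 27 samples.

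The proteins CCL2, CCL7 and CCL8 are small secreted ligands that draw monocytes and other leukocytes along a gradient. CCL2 and CCL7 act mainly through CCR2, the receptor by which monocytes leave the bone marrow and reach inflamed tissue, and CCL7 also binds receptors used by eosinophils. In mice, CCL8 also acts through CCR8, a receptor found on subsets of T cells. Genes of the first pair are classically induced in macrophages and stroma by interleukin 1, tumour necrosis factor and bacterial products through NF-kB. In the RefSeq annotation of GRCm38.p6 the family lies together on chromosome 11, in the order Ccl2, Ccl7, Ccl11, Ccl12 and Ccl8.

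Each probe pair covered 1 stretch of its transcript, from base 416 to 515 for Ccl2, 216 to 315 for Ccl7 and 151 to 250 for Ccl8, and each gene had its own efficiency of amplification, so counts are compared between samples and not between genes. Of the 3 ligand genes, 1, Ccl8, was held in the RefSeq table of promoters (GRCm38.p6), and its 250 bases before the start site are shown for that reason. Those of Ccl2 and Ccl7 were not held, so the motifs cannot be compared between the ligands. Capitals mark the match to a TATA box on chr11:82114935-82115184, + strand.

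Ccl8: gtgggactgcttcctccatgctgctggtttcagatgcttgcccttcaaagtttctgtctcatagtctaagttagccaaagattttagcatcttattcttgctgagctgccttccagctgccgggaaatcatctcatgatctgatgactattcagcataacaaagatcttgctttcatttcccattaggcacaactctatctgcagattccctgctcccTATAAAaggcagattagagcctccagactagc

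The TATA box (TATAAA) began 32 bases before the start, and 12.4% of the 32851 promoters of the table hold it on either strand of this window. None of the other motifs searched on both strands was found in these 250 bases. They were the NF-kB consensus, held by 7.25% of promoters, AP-1 (TGANTCA), held by 6.75%, the interferon-gamma activated site (TTCNNNGAA), held by 7.02%, and the GC box (GGGCGG), held by 32.7%. No motifs overlapped.

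To make lanes comparable, each count was divided by the geometric mean of the housekeeping genes Actb, Gapdh and Rpl19 of its own lane and then brought back to the average of that mean in the 27 lanes, which gives the scaled count used below. The lanes held 597997 to 1347007 counts over the tested genes, housekeeping means of 10838 to 41968 and a background (mean plus 2 SD of the negative probes) of 14.9 to 49.8 counts. Raw values of mice 3 and 4 of every group were whole multiples of a constant that the sources do not explain. Those lanes are treated below as a lane set beside the lanes of the other mice. The lane of manipulated day 1 mouse 5, which held even counts only, was kept with the other mice. The macrophage genes Csf1r, Cd68, Adgre1, Fcgr1, Spi1 and Cd14 were above background in 27 of 27 samples, and Itgam of the same list was not on the panel. Each lane had 54 to 57 of the 57 tested genes above background, so passing it does not tell cell types apart. For dendritic cells, Ccr7 was above background in 27 samples, at 699 to 17885 scaled counts, while Flt3 and Zbtb46 were blank. Markers of neutrophils, lymphocytes, epithelium, stroma and endothelium were not on the panel. In such pooled samples, fewer cells that express a gene and less RNA of it per cell cannot be told apart.

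Ccl2 was high in manipulated recipients from the first day and low in non-manipulated ones throughout. At day 1 it stood at 18626, 17729, 25618.5, 27095.5 and 21621 scaled counts in manipulated recipients, against 3673, 3225, 3046, 4184 and 1764 in non-manipulated ones. No manipulated sample came near the non-manipulated range. At day 2 the counts were 15537, 11721, 16652 and 13521 in manipulated recipients and 2608, 3396, 3811, 3253 and 5302 in non-manipulated ones, again without overlap. At day 5 manipulated recipients had 3408, 11546.5, 11524 and 16692.5, against 4047, 3063, 5445 and 2202 in non-manipulated recipients. Mouse 1 of the manipulated group fell inside the other range, and its 3 companions lay above it.

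Ccl7 joined a steady high level in manipulated recipients to a rising one in non-manipulated ones. At day 1 its scaled counts were 19254, 5106, 25296, 24894 and 10615.5 in manipulated recipients, against 60.9, 94.6, 80.9, 58.2 and 361 in non-manipulated ones. The non-manipulated lanes were then 1.80 to 9.99 times their background, so that the size of any fold against them is uncertain. At day 2 manipulated recipients stood at 19802, 8331, 19852 and 19150.1, and non-manipulated ones at 443, 1503, 1691, 1248 and 5366, with no overlap. At day 5 the counts were 2646, 21150.3, 26559.7 and 26728 in manipulated recipients and 9979, 792, 5631 and 1301 in non-manipulated ones. The ranges met there through manipulated mouse 1, which was low, and non-manipulated mice 1 and 3, which were high.

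Ccl8 stayed near background until day 5. At day 1 it had 113, 90.5, 122, 108 and 94.4 scaled counts in manipulated recipients and 114, 76.9, 100.5, 82.5 and 109.8 in non-manipulated ones, which overlapped almost fully. At day 2 manipulated recipients had 92.6, 106, 151 and 104, and non-manipulated recipients 102, 71.7, 111, 74.8 and 138. At day 5 its counts reached 142, 533, 294 and 426 in manipulated recipients, against 93.2, 124, 144 and 199 in non-manipulated ones. Mice 2, 3 and 4 of the manipulated group lay above every other sample of the series, and mouse 1 lay among the non-manipulated samples. Each lane had more Ccl8 than its background, by 2.04 to 9.46 times.

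**Figure D1:**
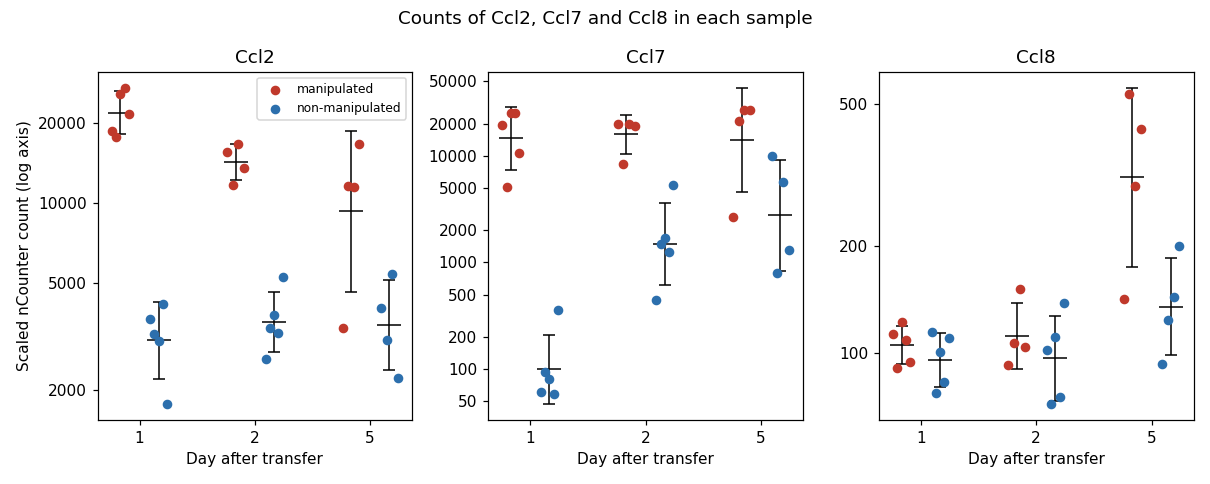
Scaled counts of Ccl2, Ccl7 and Ccl8 (vertical log axes, 1 panel a gene) in each sample at days 1, 2 and 5 after transfer, manipulated recipients in red to the left of non-manipulated ones in blue. Horizontal bars are means of the log2 values with their SD, for 4 or 5 mice a group. Ccl2 and Ccl7 are separated by arm at days 1 and 2, and Ccl8 departs from about 100 scaled counts in manipulated mice at day 5.

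Ordered by mean log2 level, Ccl2 ran from manipulated day 1 (22138 ± 4145 scaled counts, SD, n = 5) through manipulated day 2 (14358 ± 2184, n = 4) and manipulated day 5 (10793 ± 5491, n = 4) to the 3 non-manipulated groups. Those averaged 3674 ± 1007 (n = 5) at day 2, 3689 ± 1392 (n = 4) at day 5 and 3178 ± 905 (n = 5) at day 1. Neighbours in this order were set apart where their gap exceeded the larger of their SDs of log2 values. By that measure manipulated days 1 and 2 were apart, manipulated days 2 and 5 were not, and the 3 non-manipulated groups were not. Manipulated day 5 was apart from non-manipulated day 2, although mouse 1 put it inside that range.

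For Ccl7 the order was manipulated day 2 (16784 ± 5644), day 1 (17033 ± 8922) and day 5 (19271 ± 11382), none of them apart. Apart from these, though with overlapping ranges, there followed non-manipulated day 5 (4426 ± 4292) and day 2 (2050.1 ± 1914), not apart from each other, and then non-manipulated day 1 (131 ± 129), which was apart from all others without overlap. Ccl8 was led by manipulated day 5 (349 ± 169), apart from non-manipulated day 5 (139.9 ± 44.6). The other 4 groups averaged 113 ± 25.8 in manipulated recipients at day 2, 106 ± 13.1 in manipulated recipients at day 1, and 99.3 ± 27.3 and 96.8 ± 16.5 in non-manipulated recipients at days 2 and 1, and none of these neighbours was apart.

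Differences were tested by the quasi-likelihood test of edgeR with all 27 samples in 1 fit, and p-values were adjusted over the 57 genes. Fold changes are log2 of manipulated over non-manipulated unless said otherwise, with their SE. At day 1, 42.1% of the 57 genes passed at an adjusted p below 0.05, and 33.3% had arms that did not overlap. Ccl2 and Ccl7 were among both. Ccl2 was higher in manipulated recipients by 2.80 ± 0.37 (adjusted p = 7.28e-07, edgeR), which is 6.97-fold, and Ccl7 by 7.02 ± 0.93 (adjusted p = 7.28e-07), or 130-fold. Ccl8 gave 0.13 ± 0.30 (adjusted p = 0.727), with a 95% interval from -0.49 to 0.74. The median of all genes was -0.08 in this comparison.

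At day 2, 31.6% of genes passed and 28.1% had arms without overlap. Both shares again included Ccl2, at 1.97 ± 0.37 (adjusted p = 0.000425, edgeR) or 3.91-fold, and Ccl7, at 3.03 ± 0.79 (adjusted p = 0.0128) or 8.19-fold. Ccl8 gave 0.19 ± 0.31 (adjusted p = 0.737), with an interval from -0.46 to 0.84. The lanes of the other mice alone, with 2 manipulated and 3 non-manipulated samples, kept the direction of the first pair but not the calls, with Ccl2 at 1.85 (adjusted p = 0.0575) and Ccl7 at 2.53 (adjusted p = 0.132). Those of mice 3 and 4, 2 a group, gave 2.09 (adjusted p = 0.0125) and 3.73 (adjusted p = 0.00704).

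At day 5, 24.6% of genes passed and 15.8% had arms without overlap, none of the ligands among the second. Ccl2 was higher by 1.55 ± 0.39 (adjusted p = 0.00476, edgeR), or 2.93-fold, and Ccl8 by 1.32 ± 0.34 (adjusted p = 0.00476), or 2.50-fold. Ccl7 stood at 2.12 ± 0.83 and did not pass (adjusted p = 0.0602), though its 95% interval, from 0.40 to 3.85, lay above 0. The median of all genes was 0.59 here, and relative to it Ccl2 was at 0.96, Ccl7 at 1.54 and Ccl8 at 0.73.

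The day 5 values rested on few mice and moved with single ones. Without non-manipulated day 5 mouse 1, Ccl7 passed at 2.90 (adjusted p = 0.0238), and without manipulated day 5 mouse 1 at 2.49 (adjusted p = 0.0287). That manipulated mouse had the lowest count of each ligand gene in its group, and its lane had the lowest housekeeping mean of the group, at 18255 against 24221 to 31069 in the other 3. Without it Ccl2 was at 1.84 and Ccl8 at 1.58. The lanes of mice 3 and 4 alone gave 1.88 for Ccl2 (adjusted p = 0.00817), 2.94 for Ccl7 (adjusted p = 0.00512) and 1.07 for Ccl8 (adjusted p = 0.0518), and the other mice 1.07 (adjusted p = 0.431), 1.14 (adjusted p = 0.735) and 1.64 (adjusted p = 0.0908). Scaling by TMM left Ccl8 at 0.93 (adjusted p = 0.0501). Housekeeping means ran from 18255 to 31069 in manipulated lanes of day 5 and from 10838 to 26851 in non-manipulated ones, and the part of this gap in the result was not tested.

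**Figure D2:**
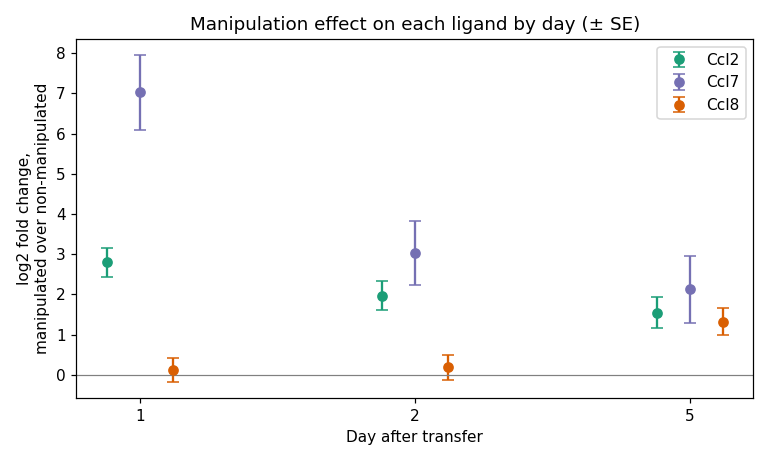
Log2 fold change of each ligand gene, manipulated over non-manipulated recipients (vertical axis), at days 1, 2 and 5 after transfer (horizontal axis), from the edgeR fit. Points are estimates and bars their SE. Ccl7 is at 7.02, 3.03 and 2.12, Ccl2 at 2.80, 1.97 and 1.55, and Ccl8 at 0.13, 0.19 and 1.32.

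Over time each gene was followed within an arm, and the courses of the 3 genes were not tested against each other. In manipulated recipients between days 1 and 2, 1.75% of genes passed and the ligands did not. Ccl2 gave -0.62, Ccl7 -0.02 and Ccl8 0.10 (day 2 over day 1, adjusted p from 0.303 to 0.978, edgeR), and limma, DESeq2 and the unadjusted edgeR p at 0.05 likewise called 0 of 3. By day 5, 40.4% of genes differed from day 1, including Ccl8, which rose by 1.72 ± 0.31 (adjusted p = 0.000268), or 3.30-fold. Ccl2 fell by 1.04 ± 0.37 on the log2 scale (adjusted p = 0.0248), and Ccl7 gave 0.18 ± 0.75 (adjusted p = 0.929).

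The fall of Ccl2 was lost without manipulated day 1 mouse 3 (-0.98, adjusted p = 0.0515) or mouse 4 (-0.95, adjusted p = 0.0559) and without manipulated day 5 mouse 1 (-0.74, adjusted p = 0.0830). Within lane sets it was -0.90 in mice 3 and 4 (adjusted p = 0.154) and -1.37 in the other mice (adjusted p = 0.106). The rise of Ccl8 was called in both sets, at 1.64 (adjusted p = 0.0101) and 1.77 (adjusted p = 0.0282), and without each of the 9 mice in turn. By the authors' own scaling factor it was 0.95 and was not called (adjusted p = 0.111).

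In non-manipulated recipients Ccl7 alone among the ligands was called for a change with time. It rose by 3.97 ± 0.80 between days 1 and 2 (adjusted p = 0.00126, edgeR), when 14% of genes passed, and by 5.08 ± 0.86 between days 1 and 5 (adjusted p = 7.07e-05), when 19.3% did. The second of these was called in each lane set, at 5.64 in mice 3 and 4 and 4.97 in the other mice, whereas the first was not called in the other mice (3.82, adjusted p = 0.0527). Ccl2 gave 0.21 ± 0.34 and 0.22 ± 0.36 (adjusted p = 0.838 and 0.732), and Ccl8 0.04 ± 0.29 and 0.53 ± 0.31 (adjusted p = 0.912 and 0.242). All time comparisons of an arm share its day 1 samples.

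Whether the manipulation effect itself differed between days was tested as an interaction. For Ccl7 the effect at day 2 minus that at day 1 was -3.99 ± 1.09 log2 units (adjusted p = 0.0230, edgeR), where 7.02% of genes passed, and the effect at day 5 minus that at day 1 was -4.90 ± 1.13 (adjusted p = 0.00396), where 19.3% passed. Over the same spans Ccl7 itself gave -0.02 and 0.18 in manipulated recipients, against 3.97 and 5.08 in non-manipulated ones. The day 2 call was lost without manipulated day 2 mouse 2 (-3.76, adjusted p = 0.0717) or non-manipulated day 2 mouse 5 (-3.24, adjusted p = 0.0627). In the other mice alone the day 5 difference was -4.94 (adjusted p = 0.0796).

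For Ccl2 the effect changed by -0.83 ± 0.50 (adjusted p = 0.386) at day 2 and by -1.25 ± 0.51 (adjusted p = 0.0919) at day 5, and it passed at day 5 without manipulated day 5 mouse 4 (-1.54, adjusted p = 0.0416). For Ccl8 the change was 0.07 ± 0.43 (adjusted p = 0.963) at day 2 and 1.19 ± 0.44 (adjusted p = 0.0603, edgeR) at day 5. The day 5 value passed without manipulated day 5 mouse 1 (1.45, adjusted p = 0.00997) or non-manipulated day 5 mouse 4 (1.41, adjusted p = 0.0288). The medians of all genes were -0.28 and 0.50, so that relative to them Ccl7 was at -3.71 and -5.40 at days 2 and 5, Ccl2 at -0.56 and -1.75, and Ccl8 at 0.34 and 0.70.

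Ratios of 2 genes within a lane do not depend on how lanes are scaled, and they were used to ask whether manipulation moved the ligands unequally. In each ratio the unit is set by probe efficiency, and the difference between arms alone is read. Ccl7 over Ccl2 was 0.288 to 1.03 (median 0.919) in manipulated recipients of day 1, against 0.0139 to 0.205 (median 0.0265) in non-manipulated ones, without overlap. At day 2 it was 0.711 to 1.42 in manipulated and 0.170 to 1.01 in non-manipulated recipients, and at day 5 it was 0.776 to 2.30 in manipulated and 0.259 to 2.47 in non-manipulated ones, with overlap at both days. In a limma fit of every gene relative to Ccl2, the arms differed in Ccl7 by 4.34 ± 0.65 log2 units at day 1 (adjusted p = 1.24e-06), 1.41 ± 0.68 at day 2 (adjusted p = 0.0671) and 0.94 ± 0.72 at day 5 (adjusted p = 0.262). Of the 56 other genes 82.1%, 73.2% and 33.9% passed at these days, and Ccl2 itself was called on each of them in the edgeR fit. At day 2 the call depended on non-manipulated mouse 5, without which the value was 1.72 (adjusted p = 0.0295).

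Relative to Ccl8, 39.3% of the other genes passed at day 1 and 25% at each of days 2 and 5. Ccl7 over Ccl8 was 56.4 to 229 in manipulated recipients of day 1 and 0.533 to 3.29 in non-manipulated ones, a difference of 7.04 ± 0.71 (adjusted p = 2.14e-08, limma). It was 3.19 ± 0.75 at day 2 (adjusted p = 0.00376), with 78.4 to 214 in manipulated and 4.36 to 38.9 in non-manipulated recipients. By day 5 the ranges overlapped, at 18.7 to 90.3 in manipulated and 6.41 to 107 in non-manipulated recipients, and the difference was 1.15 ± 0.79 (adjusted p = 0.269).

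Ccl2 over Ccl8 followed the same path, with differences of 2.70 ± 0.37 at day 1 (adjusted p = 2.06e-06, limma), 1.79 ± 0.39 at day 2 (adjusted p = 0.00342) and 0.22 ± 0.41 at day 5 (adjusted p = 0.690). Its medians at day 1 were 210 in manipulated and 32.1 in non-manipulated recipients, and those at day 5 were 31.6 in manipulated and 31.3 in non-manipulated ones. In the other mice alone the day 5 value was -0.51 (adjusted p = 0.536). Ccl8 counts lay close to background at days 1 and 2, so that these ratios are rough in size.

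**Figure D3:**
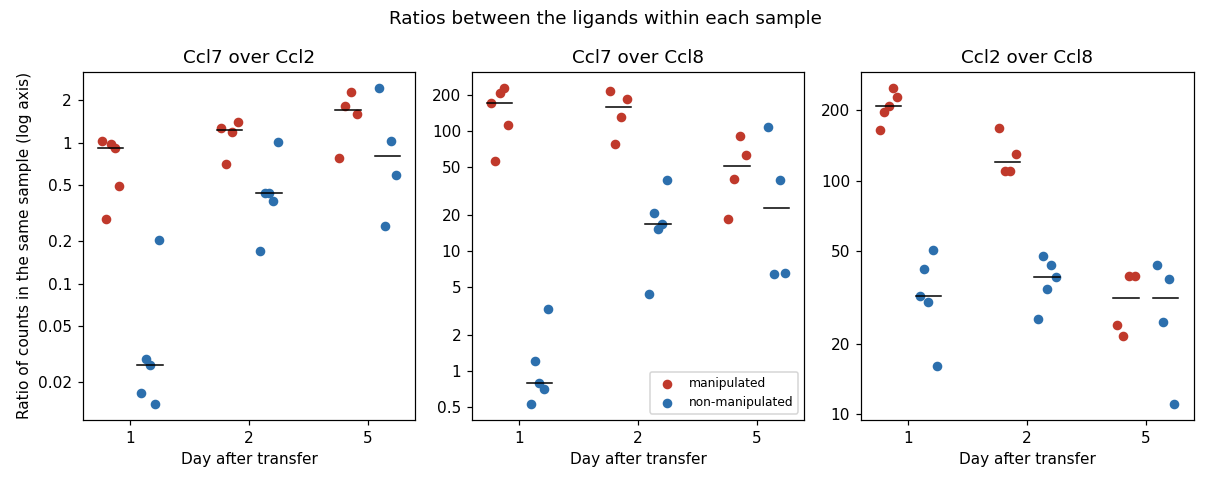
Ratios of the counts of Ccl7 to Ccl2, Ccl7 to Ccl8 and Ccl2 to Ccl8 in the same sample (vertical log axes, 1 panel a ratio) at days 1, 2 and 5, manipulated recipients in red to the left of non-manipulated ones in blue, with bars at the group medians. Each ratio separates the arms at day 1, and the median of Ccl2 over Ccl8 is 31.6 in manipulated and 31.3 in non-manipulated recipients at day 5.

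Across the 27 samples the log2 levels of Ccl2 and Ccl7 had a Pearson correlation of 0.784, Ccl7 and Ccl8 of 0.423, and Ccl2 and Ccl8 of 0.234. Within groups, taking deviations from the group means, the values were 0.569, 0.374 and 0.452. Samples share an arm, a day and the scaling of the lane, and these values are descriptions. Cxcl1, which encodes a neutrophil attractant, was the gene most like Ccl2 (r = 0.847) and Ccl7 (r = 0.819) among 56 others. Il1a, which encodes an interleukin 1 cytokine, stood at 0.763 with Ccl2 and 0.772 with Ccl7, so that the leading 3 genes of each were the other ligand, Cxcl1 and Il1a. The genes most like Ccl8 were Cd14 (r = 0.624), the co-receptor for bacterial lipopolysaccharide, Trem2 (r = 0.619), a lipid-sensing receptor of macrophages, and Il10 (r = 0.616), a regulatory cytokine. None of these was among the leading 3 of Ccl2 or Ccl7, but they were not particular to Ccl8. Il10 stood at 0.683 with Ccl7 and 0.507 with Ccl2, and Cd14 at 0.584 and 0.517. Trem2 was lower, at 0.381 with Ccl7 and 0.395 with Ccl2.

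**Figure D4:**
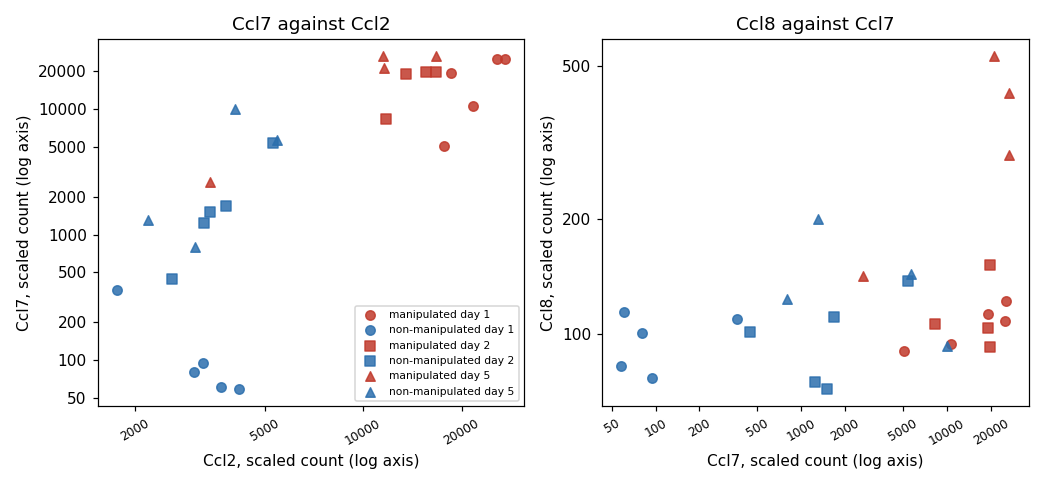
Scaled counts of Ccl7 against Ccl2 and of Ccl8 against Ccl7 (log axes), 1 point a sample, coloured by arm and shaped by day. In the panel of Ccl7 against Ccl2 the non-manipulated day 1 samples lie lowest, at 58.2 to 361 for Ccl7, and in the panel of Ccl8 against Ccl7 a group of 3 manipulated day 5 samples stands at 294 to 533 for Ccl8.

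Among the receptors named above for these ligands, Ccr2 alone had values in the same donor cells. Ccr2, the receptor of CCL2 and CCL7, was lower in manipulated recipients at day 1 (-1.73 ± 0.48, adjusted p = 0.00482, edgeR), day 2 (-1.57 ± 0.51, adjusted p = 0.0279) and day 5 (-1.64 ± 0.53, adjusted p = 0.0264). It averaged 20496 ± 15728 scaled counts in manipulated and 67764 ± 25996 in non-manipulated recipients of day 1. By the authors' factor these calls were lost, at -0.88, -1.09 and -1.29 (adjusted p from 0.203 to 0.295). Of the 4 measured chemokine receptors of 5 listed, 2 were lower at day 1, 3 at day 2 and 1 at day 5, and 0 were higher, beside 42.1%, 31.6% and 24.6% of all genes called in either direction on these days. At day 2 these were Ccr2, Ccr9, a receptor for homing to the gut, and Cx3cr1, the fractalkine receptor, and by the authors' factor 0 of the 3 passed, while without Rpl19 in the scaling Ccr2 (-1.23, adjusted p = 0.0669) and Cx3cr1 (-1.85, adjusted p = 0.0672) did not. The list median was -0.90 at day 1 against -0.08 over all genes. Ccr8, which encodes the second receptor of mouse CCL8, was blank.

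Among the other chemokine ligands, 5 of 6 were measured and Cxcl1 was the 1 called higher on each day, at 3.90 ± 0.45, 3.02 ± 0.45 and 2.72 ± 0.48. Of all genes, 42.1%, 31.6% and 24.6% were called in either direction at days 1, 2 and 5. Lower were Cxcl9 and Cxcl11, ligands of CXCR3, a chemokine receptor of T cells, at day 1 (-4.57 ± 1.07 and -2.28 ± 0.91), both of them with Ccl22 at day 2, and Cxcl9 at day 5 (-3.04 ± 1.11, adjusted p = 0.0452, edgeR). The call of Cxcl9 at day 5 was lost by the authors' factor (-2.51, adjusted p = 0.112) and without Rpl19 (-2.96, adjusted p = 0.0504), and so was that of Cxcl11 at day 1 (-1.93, adjusted p = 0.103, and -2.09, adjusted p = 0.0680). At day 2 the authors' factor left Cxcl9 as the 1 lower ligand, with Ccl22 at -1.72 (adjusted p = 0.0613) and Cxcl11 at -2.79 (adjusted p = 0.0506). At days 1 and 2 Ccl2 and Ccl7 shared their direction with Cxcl1 and not with Cxcl9 and Cxcl11. Cxcl10, also a ligand of CXCR3, was measured and was not called by edgeR at day 1, 2 or 5.

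All 4 cytokines listed as inducers of Ccl2 and Ccl7 were higher in manipulated recipients at day 1, when 42.1% of all genes passed in either direction. Their median was 3.07 against -0.08 over all genes. Il6 gave 5.12 ± 0.67, Il1a 4.07 ± 0.42 and Tnf 2.08 ± 0.52 (adjusted p from 3.48e-08 to 0.00197, edgeR). At days 2 and 5, 1 of 4 passed, Il1a at 1.42 ± 0.39 and 2.68 ± 0.44, beside 31.6% and 24.6% of all genes. Il6 stood at 1.37 at day 2 and passed by the authors' factor (1.84, adjusted p = 0.0253) and without Rpl19 (adjusted p = 0.0438). In non-manipulated recipients 2 of the 4 rose over day 1 at days 2 and 5, when 14% and 19.3% of all genes passed. By limma 2 of the 4 were called at day 2 and 1 at day 5. Ccl7 rose as well and Ccl2 was not called, and a link to these cytokines was not tested. Tnf rose by 1.63 ± 0.51 at day 2 and 2.31 ± 0.54 at day 5, and Il1a by 2.25 ± 0.39 and 1.17 ± 0.39 (adjusted p from 0.000280 to 0.0453, edgeR). Il6 gave 0.89 and -0.14, and Il1b 0.21 and -0.07, and neither passed at either day.

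Of 5 genes listed for the sensing of bacterial products and the signalling behind it, 2 were higher at day 1, Cd14 (1.00 ± 0.25) and Tlr4, the lipopolysaccharide receptor (1.11 ± 0.42). At day 2, 0 passed, and at day 5 Cd14 passed (1.06 ± 0.28, adjusted p = 0.00650, edgeR), beside the 42.1%, 31.6% and 24.6% of all genes called at days 1, 2 and 5. At day 2, limma called 0 of them, DESeq2 called 1, and 1 had an edgeR p under 0.05 before adjustment. Cd14 also rose between days 1 and 5 in manipulated recipients, by 0.81 ± 0.27 (adjusted p = 0.0172, edgeR), as did Ccl8, when 40.4% of all genes passed. Over the same span in non-manipulated recipients, where 19.3% passed, edgeR called Cd14 higher but not Ccl8. There limma called 0 of the 5 genes. The day 1 count moved with the setting, to 1 by limma and by total count, where Tlr4 was at 0.80 (adjusted p = 0.153). Without Rpl19 in the scaling 4 of the 5 genes were higher at day 1, and by the authors' factor 3, and Cd14 passed at day 2 under both (1.01 and 1.20).

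Of the NF-kB subunits 3 of 5 were measured (Nfkb1, Nfkb2 and Relb), and 0 passed on any day by edgeR, limma or DESeq2, 0 also at an unadjusted p below 0.05, with values between -0.46 and 0.69. Over all genes, 42.1%, 31.6% and 24.6% passed by edgeR at days 1, 2 and 5. Irf5, which encodes a transcription factor of interferon and cytokine genes, lay between -0.47 and 0.44 and passed on 0 of 3 days by edgeR.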

How the data were processed

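Donor-derived cells of 27 recipients were measured on the nCounter after reverse transcription and 16 cycles of pre-amplification. In the raw table deposited by the authors, 14 lanes held probe counts. The lane of manipulated day 1 mouse 5 held even counts only and was divided by 2. The 12 lanes of mice 3 and 4 held values deposited by the authors that were not whole and were taken for estimated counts, each a whole multiple of 1.333 (tolerance 0.001), and were divided by it, although the sources used here do not explain this multiplier. The second table, per the labels, held a score that the authors had set relative to housekeeping genes, equal to the raw value times 1 factor per sample (0.407 to 3.34), and served as an alternative. Of 67 genes, 10 were blank and 57 were tested. Probe names were matched to current symbols by accession (69) or symbol (3).

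Library size was the geometric mean of the 3 housekeeping genes with values of 5. edgeR 4.0.16 in R 4.3.3 fitted 6 group means to all 27 samples (21 residual degrees of freedom, which also set the 95% intervals, and a biological coefficient of variation of 0.685 in common), with two-sided quasi-likelihood tests and Benjamini-Hochberg adjustment over 57 genes. This replaced the methods' test on log2 values, since counts were available. SE is the log2 fold change over the root of F. Ratios of genes were fitted with limma 3.58.1 on log2(count + 1), adjusted over the other 56 genes. Correlations used log2(scaled count + 1). Scripts were tested on simulated data. No lanes of a group agreed within counting noise, so none was taken as a duplicate. The mice came from pooled experiments that the labels do not tell apart, and p-values measure the spread between these samples.

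Alternatives were DESeq2 1.42.0, limma with pseudocounts of 1 and 20, other scalings, background subtraction, a filter (above background in at least 14 samples, passed by 57 of 57 genes), lane sets, the replicate number as a block and leaving out each mouse. Another used the deposited values with their multiplier kept, rounded to whole numbers. Named were the 3 ligands, the 3 genes most like each, Ccr2, Cxcl10 and up to 3 others of each list by smallest p. The members and lists were chosen with earlier results of these data known. The result of 1 gene of these lists is not reported here.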

Additional observations from a re-analysis of the deposited data

Results flagged for a closer look

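Over the 3 ligand genes in 6 groups of 4 or 5 mice, 18 combinations in all, 1 mouse lay far from the others of its group in 3, each of them for Ccl7. The limit used gives about 1 in 20 by chance for normally distributed values. Scaled counts need not be normal, so the chance rate here is not known. The scaled count of non-manipulated day 1 mouse 5 was 361, against 94.6 in the nearest of its group. Manipulated day 2 mouse 2 stood at 8331, against 19150.1 in the nearest. Non-manipulated day 2 mouse 5 stood at 5366, against 1691 in the nearest. Ccl2 and Ccl8 had no such mouse in any group. On the log2 scale, chosen after seeing the data, non-manipulated day 2 mouse 5 no longer stood apart, with a gap to the nearest mouse of 0.463 of the whole range, and manipulated day 5 mouse 1 did for Ccl7, with a gap of 0.899 of the range.

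The manipulation effect on Ccl7 differed between days, by -3.99 log2 units for day 2 minus day 1 (adjusted p = 0.0230, edgeR) and by -4.90 for day 5 minus day 1 (adjusted p = 0.00396). Both differences share the samples of day 1.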

How the results depend on the processing

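Of 36 fitted results on the ligands, 17 were called. The 12 fold changes among these were refitted under 17 other settings and the 5 ratios under 6 (limma with a pseudocount of 20, background subtraction, the replicate and lane set blocks, and each lane set), and each without every mouse of its own groups in turn, and none changed sign. The calls held in each setting run for the day 1 effects on Ccl2 and Ccl7, the 3 day 1 ratios and the rise of Ccl7 between days 1 and 5 in non-manipulated recipients. In all, 799 of 897 refits kept sign and side of the threshold, 27 lost a call, 19 gained one and 52 turned the sign of a result that was not called. The refits that kept both include those of the filter, which removed no gene and so repeated the main fit. They also include those on the deposited values, which called as many genes as the main fit in every comparison. Counts near background limit Ccl8, at 2.04 to 9.46 times it, and Ccl7 in non-manipulated recipients of day 1, at 1.80 to 9.99 times. Causes were not tested. Values are log2.

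The replicate number was not treated as a pairing in the main fit. Same-numbered samples of the 2 arms correlated at -0.32 to 0.39 over 13 pairs, 5 of them over 0.1, and 9 of 27 samples lay closest to their own number. No chance rate was set beside these counts, so they do not exclude a weak pairing, and the replicate number was fitted as a block. With the replicate block the count at day 1 was 22 genes in place of 24, Ccl7 over Ccl2 at day 2 passed (1.70, adjusted p = 0.0221), Ccl7 between days 1 and 2 in manipulated recipients was 0.15, and no other call on the ligands changed.

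The manipulation effect on Ccl8 at day 1 was -0.0033 with DESeq2's own size factors, -0.17 by total count and -0.016 in the other mice, and at day 2 -0.059 in the other mice, who also lost Ccl2 (1.85) and Ccl7 (2.53) at day 2. At day 5 Ccl7 passed by the authors' factor (2.61), limma on the authors' values (2.72), limma with a pseudocount of 20 (2.34), DESeq2 with housekeeping factors (2.12) and in mice 3 and 4 (2.94). Ccl8 at day 5 missed under TMM (0.93), in mice 3 and 4 (1.07), the other mice (1.64) and with its groups alone (1.32). Ccl2 at day 5 missed in the other mice (1.07) and with its groups alone (1.55). Leaving out 1 mouse gave 1.77 to 2.90 for Ccl7 at day 5.

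Over time in manipulated recipients, Ccl7 at day 2 over day 1 was 0.24 under TMM, 0.21 by total count, 0.12 with DESeq2's own factors, 0.12 by limma with either pseudocount and 0.27 in the other mice, and at day 5 it was -0.76 by the authors' factor, -0.78 on the authors' values, -0.012 by total count, -0.12 without Rpl19, -0.018 with DESeq2's own factors and -0.046 and -0.045 by limma with pseudocounts of 1 and 20. Ccl8 at day 2 was -0.20 by the authors' factor and -0.091 on the authors' values, and at day 5 its call was lost by both (0.95 and 0.84). The fall of Ccl2 at day 5 was not called in mice 3 and 4 (-0.90), the other mice (-1.37) or with its groups alone (-1.04). In non-manipulated recipients Ccl8 at day 2 was -0.049, -0.13, -0.054, -0.11 and -0.066 by the authors' factor, the authors' values, total count, without Rpl19 and with DESeq2's own factors, and at day 5 -0.015 and -0.039 by the first 2. Ccl2 was -0.034 at day 2 in mice 3 and 4, and at day 5 -0.36, -0.34 and -0.14 by the authors' factor, the authors' values and total count. Ccl7 at day 2 missed in the other mice (3.82). Leaving out 1 mouse gave -0.25 to 0.20 and -0.055 to 0.54 for Ccl7 in manipulated recipients at days 2 and 5, -0.066 to 0.19 for Ccl8 at day 2, -1.33 to -0.74 for Ccl2 at day 5, and in non-manipulated ones -0.11 to 0.13 for Ccl8 at day 2 and -0.034 to 0.40 for Ccl2 at day 5.

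The change of the effect on Ccl7 at day 2 missed by total count (-3.64), limma with a pseudocount of 20 (-3.52), limma on the authors' values (-3.82) and in the other mice (-3.55), and at day 5 in the other mice (-4.94). Ccl2 at day 5 passed under TMM (-1.64) and with DESeq2's own factors (-1.63), and Ccl8 by total count (1.36) and DESeq2 with housekeeping factors (1.20). Ccl8 at day 2 was -0.15 by the authors' factor and -0.043 in the other mice. Leaving out 1 mouse gave -4.82 to -3.24 for Ccl7 at day 2, -1.54 to -0.96 for Ccl2 at day 5, and -0.10 to 0.21 and 0.91 to 1.45 for Ccl8 at days 2 and 5.

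Among ratios, in mice 3 and 4 Ccl2 over Ccl8 missed at day 2 (1.63), while Ccl7 over Ccl8 passed at day 5 (2.24) and Ccl7 over Ccl2 at days 2 and 5 (1.65 and 1.30). In the other mice Ccl2 over Ccl8 (1.92) and Ccl7 over Ccl8 (3.09) missed at day 2, and Ccl2 over Ccl8 was -0.51 at day 5. Leaving out 1 mouse gave -0.19 to 0.47 for the last and 1.08 to 1.72 for Ccl7 over Ccl2 at day 2. Of the 6 groups ordered by Ccl8, 2 kept their place by total count, without Rpl19 and on the authors' values, with manipulated day 5 first each time.

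Counts of called genes over the whole panel moved by more than 1.5 times as follows. For manipulated against non-manipulated recipients, the 24 genes of day 1 became 14 in mice 3 and 4, the 18 of day 2 became 6 in mice 3 and 4 and 3 in the other mice, and the 14 of day 5 became 24 in mice 3 and 4, 8 in the other mice, 7 with the groups alone and 9 by limma on the authors' values. For day 2 over day 1 in manipulated recipients, 1 gene became 0 under TMM, with background subtracted, in mice 3 and 4 and with the groups alone, 2 and 3 by limma with pseudocounts of 20 and 1, 3 with DESeq2's own factors, and 5 by DESeq2 with housekeeping factors and in the other mice. For day 5 over day 1 there, 23 became 14 by the authors' factor and on the authors' values and 12 with the groups alone. In non-manipulated recipients, 8 genes of day 2 over day 1 became 4 by limma with a pseudocount of 1, on the authors' values and in the other mice, and 5 with a pseudocount of 20. For day 5 over day 1, 11 became 18 by DESeq2 with housekeeping factors, 19 in mice 3 and 4, and 7 with the replicate block and by limma with a pseudocount of 20. For the change of effect, 4 genes of day 2 became 2 by total count, limma with a pseudocount of 20, the authors' values and in mice 3 and 4, and 11 of day 5 became 6 by the authors' factor, 7 by limma with either pseudocount and 2 on the authors' values. The median of all genes at days 1, 2 and 5 was 0.66, 0.40 and 0.85 by the authors' factor and -0.38, -0.13 and 0.39 by total count, in place of -0.08, -0.05 and 0.59.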
